A study of Mus musculus with 2 samples.

Results

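The HC/CH-rich windows were 13450 autosomal windows of 1 kb in E14 mouse embryonic stem cells in which at least 15% of the CpG state calls of replicate 1 carried 5-hydroxymethylcytosine (hmC) on 1 strand and unmodified cytosine on the other. They were taken from 1193867 windows that held at least 5 CpG sites and 40 calls in replicate 1, so that the rule kept 1.13% of the windows it could be applied to. SCoTCH-seq reads both strands of the same DNA fragment and assigns every CpG to 1 of 9 states, written with the plus strand first, where C is unmodified cytosine, M is 5-methylcytosine (mC) and H is hmC. HC/CH is the sum of HC and CH, and the same notation is used for MC/CM and HM/MH. DNA came from 2 passages of the E14 line grown in serum with LIF on gelatin, and both samples belong to 1 condition, so there was no treated group and no test between samples.

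In the mammalian genome most CpGs carry mC on both strands (MM). TET enzymes oxidise mC to hmC, and when DNA is copied the new strand starts without modification until maintenance methylation by DNMT1 with UHRF1 restores it, so that the partner of an hmC can be C, mC or hmC. HC/CH is the state in which the partner is unmodified. In embryonic stem cells hmC is known to be found in gene bodies and at enhancers and to be low at unmethylated CpG island promoters.

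Levels are percentages of summed calls, and each call is 1 read pair at 1 CpG. Replicate 1 held 141159011 calls at 13366464 autosomal sites, with a median depth of 10 per site, and replicate 2 held 31102023 calls at 4882356 sites, with a median depth of 6. The promoters (1 kb either side of the TSS) of Pou5f1, Nanog and Zfp42, which are active in these cells, were CC in 80.1% to 98.7% of calls (replicate 1) and in 86.2% to 100% (replicate 2). No RNA was measured here, so that the cell type was checked by promoter state alone. In the synthetic duplexes, a true MC or CM was called HC/CH at a rate of 3.50% (replicate 1) and 0.607% (replicate 2), and MM was called HC/CH in 0.167% and 0.105%.

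The stretches of 200 bases below lie in 5 of the windows that were high in both replicates and in the Esrrb window with the highest level, and show how the HC/CH calls were laid out along the DNA. They are the plus strand of GRCm38 (mm10) as held by RefSeq, 5′ to 3′, and capitals mark each CpG with at least 1 HC or CH call in either replicate. Each stretch was placed where its window had most HC/CH calls, so its level is a description.
Lmf1 intron, chr17:25618400-25618599: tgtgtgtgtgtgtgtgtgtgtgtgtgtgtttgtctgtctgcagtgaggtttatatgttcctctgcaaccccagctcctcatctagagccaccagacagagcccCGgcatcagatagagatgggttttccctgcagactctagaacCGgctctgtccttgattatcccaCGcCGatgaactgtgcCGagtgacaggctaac
March10 intron, chr11:105402415-105402614: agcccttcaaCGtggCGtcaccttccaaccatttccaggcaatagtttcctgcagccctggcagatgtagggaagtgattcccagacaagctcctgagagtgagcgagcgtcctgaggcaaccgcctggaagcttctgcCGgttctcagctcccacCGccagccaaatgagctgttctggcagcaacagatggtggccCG
Arid1b intron, chr17:5133101-5133300: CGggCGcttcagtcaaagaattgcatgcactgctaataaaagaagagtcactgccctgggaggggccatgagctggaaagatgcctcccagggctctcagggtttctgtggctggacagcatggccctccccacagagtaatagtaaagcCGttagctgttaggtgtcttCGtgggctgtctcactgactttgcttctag
Prep intron, chr10:45123086-45123285: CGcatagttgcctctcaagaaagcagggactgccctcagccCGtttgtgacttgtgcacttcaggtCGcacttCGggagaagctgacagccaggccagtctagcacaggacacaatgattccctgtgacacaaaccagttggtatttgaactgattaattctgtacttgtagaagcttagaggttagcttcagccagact
Cpne5 intron, chr17:29232242-29232441: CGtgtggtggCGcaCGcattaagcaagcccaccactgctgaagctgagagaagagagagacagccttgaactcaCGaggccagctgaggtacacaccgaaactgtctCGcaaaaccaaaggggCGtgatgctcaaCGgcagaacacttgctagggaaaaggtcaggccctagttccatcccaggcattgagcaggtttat
Esrrb intron, chr12:86518032-86518231: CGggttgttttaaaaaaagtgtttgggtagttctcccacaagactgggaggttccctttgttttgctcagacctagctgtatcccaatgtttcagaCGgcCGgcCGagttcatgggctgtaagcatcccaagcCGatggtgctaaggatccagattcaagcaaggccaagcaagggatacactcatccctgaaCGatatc
In the Arid1b stretch all 4 CpGs carried HC/CH calls in at least 1 replicate, with 8 of 36 calls (replicate 1) and 10 of 25 (replicate 2). Single CpGs differed between the replicates, with 6 of 12 and 1 of 7 calls at base 1 of the stretch and 0 of 7 and 4 of 6 at base 5. The Prep stretch also held 4 CpGs, all with HC/CH calls, and 9 of 30 calls of replicate 1 were HC/CH and 10 of 27 of replicate 2. In the Lmf1 stretch all 5 CpGs carried them, with 14 of 61 calls (replicate 1) and 6 of 26 (replicate 2), and in the Cpne5 stretch 7 of 8 CpGs did, with 15 of 69 and 11 of 48. The calls were thus spread over several neighbouring CpGs in each stretch, although CpGs this close can lie in the same DNA fragment and are then not independent. The March10 stretch held 8 CpGs, of which 5 had deposited calls, and all 5 carried HC/CH. All 6 CpGs of the Esrrb stretch carried HC/CH, in 16 of 62 calls of replicate 1, while replicate 2 had only 5 calls there, 1 of them HC/CH.

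In replicate 1, which chose the windows, HC/CH was 17.1% of all calls in them against 4.25% in the other eligible windows, and these levels follow from the rule. The median window stood at 16.7%, 1644 windows reached 20%, 193 reached 25%, 23 reached 30% and the highest was at 38.3%. Most windows therefore lay just above the limit. The 3 windows just inside it with most calls all stood at 15%, with 36 of 240 calls between A4galt and Arfgap3 and 30 of 200 in an intron of Tiam1 and in an intergenic window. In replicate 2 these windows were at 3.64%, 6.15% and 8.62%. The 3 windows just outside the limit, in introns of Tspan9 and Usp10 and in an intergenic window, all stood at 14.97% in replicate 1. Replicate 2 had 1.61%, 12.8% and 11.8% there, on 62, 39 and 17 calls, against 55, 65 and 58 calls in the windows inside. The values of replicate 2 overlapped across the limit, although the latter 2 windows outside it had fewer than 40 calls there.

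The layout of HC/CH calls within a window of replicate 1 is a description, since the rule used these calls. The median window had 8 sites and 73 calls, against 8 and 83 in the other eligible windows, and the sets were not matched for depth. In the median chosen window 75% of the sites had at least 1 HC/CH call. The site with most HC/CH calls held 30.8% of them in the median window, and up to 90.9%. When that site was left out and the limits were applied again to all windows, 3187 were over them, from a smaller set of eligible windows. Both strands took part about equally, with HC at 8.56% and CH at 8.59% of calls in replicate 1.

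The same windows were then read in replicate 2, which the rule did not use. Of the 13450 windows, 12251 had at least 1 call in replicate 2 and 1199 had none. The limits on sites and calls were passed by 1354 of them (10.1%), and by 135030 (11.4%) of the other windows. In these 1354 windows HC/CH was 10.1% of 69879 calls (exact 95% interval, 9.88% to 10.3%, counting error only), against 4.37% in the other windows. HC/CH was higher in the chosen windows on 19 of 19 autosomes, by 4.55 to 7.05 percentage points (5.73 ± 0.622, mean and SD over autosomes, adjusted p = 5.72e-06 by an exact permutation test that flips the sign of each autosome's difference, two-sided like all such tests here). The unadjusted p was 3.8e-06, the smallest that 19 autosomes allow, and autosomes of 1 library are not replicates of the condition. Over the windows that passed the limits in both samples, the mean of the replicates was 13.5% ± 4.78 (SD, n = 2), from 16.9% and 10.1%, a description only, since the rule fixed the former value. The level in replicate 2 lay between that of replicate 1 and that of the other windows.

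Single windows were spread widely in replicate 2. The lowest of the 1354 windows was at 0, the median at 9.76% and the highest at 37.5%, while the other windows had a median of 3.45%. The level was above that median in 1216 windows (89.8%), and in 49.9% of the others. A window was at 15% or more in replicate 2 in 227 of 1354 cases (16.8%), against a background of 2.97% of all windows tested. By Fisher's exact test of each window against all others in replicate 2 (one-sided, Benjamini-Hochberg adjusted over 136384 windows), 163 of 1354 (12.04%) were called higher at an adjusted p under 0.05, against a background of 2.16%. At an unadjusted p under 0.05 the counts were 597 (44.1%) and 10.5% of all windows. Fisher's test takes each call as independent, so these p-values cover counting error only, and calls at CpGs of 1 fragment make them too small. No called window had fewer than 8 HC/CH calls, and with a median of 48 calls per window smaller differences were not detectable.

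**Figure D1:**
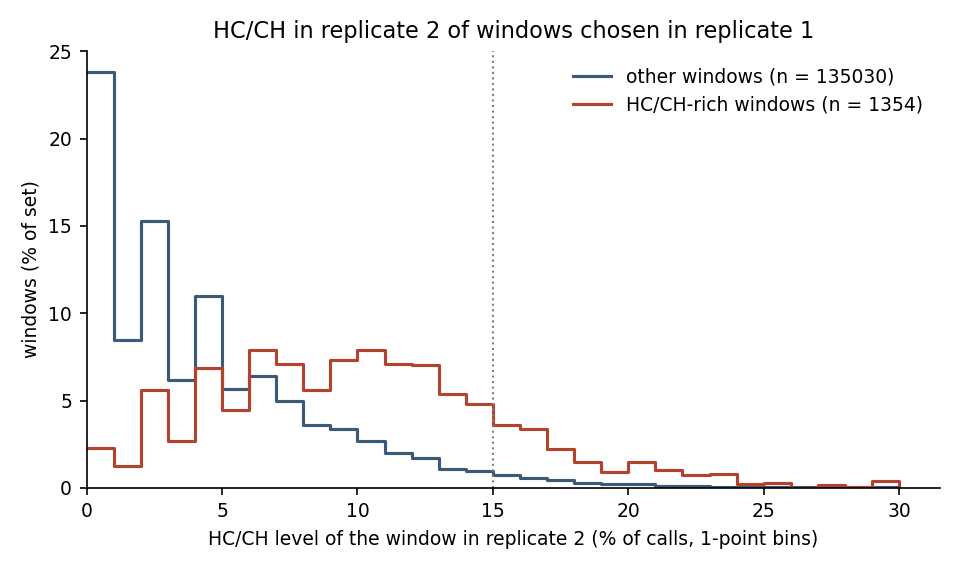
HC/CH level in replicate 2 (x axis, percent of calls in bins of 1 point) of the 1354 HC/CH-rich windows and the 135030 other windows that passed the limits in both replicates (y axis, percent of each set); the dotted line marks 15%. The chosen windows have a median of 9.76% and the others of 3.45%, and the distributions overlap.

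Within the chosen windows, no order by the level in replicate 1 was seen in replicate 2. The 966 windows with the lowest levels in replicate 1, pooled at 16.0% there, were at 10.1% in replicate 2. The next 266, pooled at 18.4%, and the next 117, pooled at 21.3%, were at 10.1% as well. The 5 windows from 25% upward were at 7.34% (exact 95% interval, 4.47% to 11.2%). Across the 1354 windows the rank correlation between replicates was 0.0194, and across all windows tested it was 0.504, a description over windows that share 2 libraries. By depth in replicate 1, the level in replicate 2 was 9.01% (7.93% to 10.2%) for 40 to below 60 calls and 9.02% (8.38% to 9.69%) for 60 to below 80. It was 10.2% (9.88% to 10.6%) for 80 to below 120 calls and 10.3% (9.99% to 10.7%) for 120 or more. The interval of the 60 to below 80 class lay below those of both deeper classes. In replicate 1 the level of these classes ran the other way, from 17.7% at 40 to below 60 calls to 16.6% at 120 or more. The part of depth in either order was not tested.

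Sites within the windows, which the rule did not cut singly, were ordered in replicate 2 by their calls in replicate 1. Sites of the windows with no HC/CH call in replicate 1 were at 7.19% HC/CH in replicate 2 (exact 95% interval, 6.97% to 7.42%). Sites with 1 such call were at 9.14%, with 2 at 10.2%, with 3 at 11.3%, and with 4 or more at 12.2% (11.9% to 12.6%). Even the sites without a call in replicate 1 were thus above the 3.89% of the other eligible windows with a call in replicate 2, while sites with most calls in replicate 1, where they had 32.8%, were at a much lower level in replicate 2. These intervals cover counting error only, and calls of 1 fragment were counted at each of its sites.

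The strand that carried hmC in replicate 1 was compared with that in replicate 2 in the same way. In the 1335 windows in which HC made up 75% to below 100% of the HC/CH calls of replicate 1, HC made up 51.6% of them in replicate 2 (exact 95% interval, 49.4% to 53.7%). In the 1339 windows with HC above 0 and up to 25% in replicate 1, it made up 48.9% in replicate 2 (46.8% to 51.1%), and in the 10613 windows between them 49.9% (49.3% to 50.6%). The 80 windows with HC alone in replicate 1 were at 51.1% HC in replicate 2 (40.2% to 61.9%) and the 83 with CH alone at 57.7% (46.0% to 68.8%). The intervals of opposite groups overlapped, and the differences were not tested. HC/CH with hmC on the sense strand of the gene, in windows that lay in protein-coding genes of 1 strand, was 4.78% of calls in replicate 2, and with hmC on the antisense strand 4.89%. The difference of -0.10 points was above 0 on 8 of 19 autosomes and did not pass the exact permutation test (p = 0.58).

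The other CpG states of the windows were tested in replicate 2 in the same way. HM/MH was 5.73% of calls in the windows and 2.79% in the others, and was higher on 19 of 19 autosomes (exact permutation test, adjusted p = 5.72e-06). HH, in which both strands carry hmC, was 0.721% against 0.222%, also higher on 19 of 19 (adjusted p = 5.72e-06, exact). All groups of states with hmC were thus higher in windows chosen by HC/CH alone. MM was lower on 19 of 19 autosomes, at 45.6% against 50.7% (adjusted p = 5.72e-06, exact). CC was 27.3% against 30.7%, lower on 17 of 19 (adjusted p = 0.000339, exact), and MC/CM was 10.6% against 11.2%, lower on 13 of 19 (adjusted p = 0.00177).

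The differences of MM, MC/CM and CC depended on how many calls a window needed in replicate 2. With at least 20 calls, CC was 26.6% in 3122 chosen windows and 25.8% in 285568 others, a difference of 0.79 points that did not pass the test (exact permutation test, adjusted p = 0.156). With at least 80 calls, MM was 43.5% in 48 chosen windows and 27.1% in 10602 others, and CC was 30.5% against 61.3%, so that the direction of MM turned. The other windows held a median of 14 CpGs in the reference at 20 calls, 16 at 40 and 28 at 80, and the part of CpG density in these differences was not tested. The chosen windows changed less across these minimums, and HC/CH, HM/MH and HH were higher in them at each.

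In replicate 1 the chosen windows were at 38.7% MM against 55.2%, and at 28.4% CC against 23.2%. These calls are the remainder after the HC/CH that the rule used. They cover all 13450 chosen and 1180417 other windows, and not only those that passed the limits in replicate 2, so the direction of CC cannot be compared with the values above. Over the 12251 chosen windows with any call in replicate 2, CC was 25.3% there, and over all autosomal calls 19.5%. The latter value includes windows that were not eligible, so these 2 values are not a matched comparison. Individual windows ranged from 0 to 79.2% CC and from 0 to 78.7% MM in replicate 1, with medians of 25.7% and 39.7%. A window with at least 15% HC/CH can be neither fully methylated nor fully unmodified, so the mixture of states follows in part from the rule. In the 1354 windows that passed the limits in replicate 2, the medians there were 25.0% CC and 46.3% MM.

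**Figure D2:**
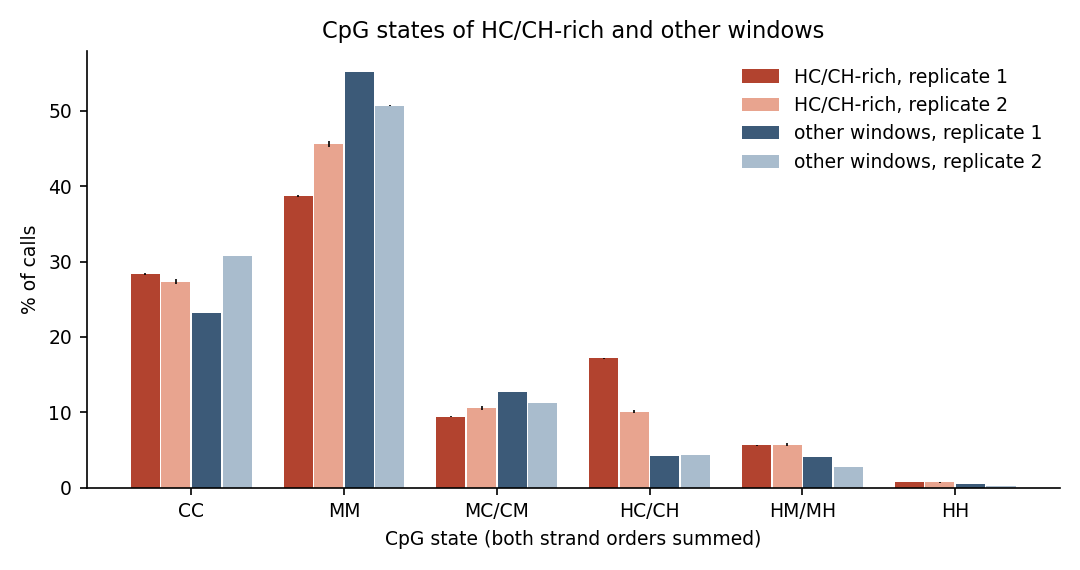
Percent of calls (y axis) in each CpG state (x axis, both strand orders summed) for HC/CH-rich and other windows in each replicate; bars are pooled levels and error bars exact 95% intervals for counting error. HC/CH of the chosen windows is 17.1% in replicate 1 and 10.1% in replicate 2, and HM/MH and HH are above the other windows in both.

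The raised HC/CH was narrow. Read in replicate 2, HC/CH was 9.66% over the 12251 chosen windows with a call there, 6.31% and 6.29% in the windows 1 kb to either side, 5.58% and 5.39% at 2 kb and 5.10% at 10 kb on both sides. Windows that were themselves chosen were left out of the flanks. The mean of all autosomal calls was 3.67%. The flanks up to 10 kb were thus above the autosomal level, by less than the windows themselves. HM/MH followed the same shape, at 5.55% in the windows, 3.81% and 3.69% at 1 kb and 3.07% and 3.08% at 10 kb. MM was at 47.1% in the windows, 51.2% and 51.5% at 1 kb and 52.0% and 51.7% at 10 kb.

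**Figure D3:**
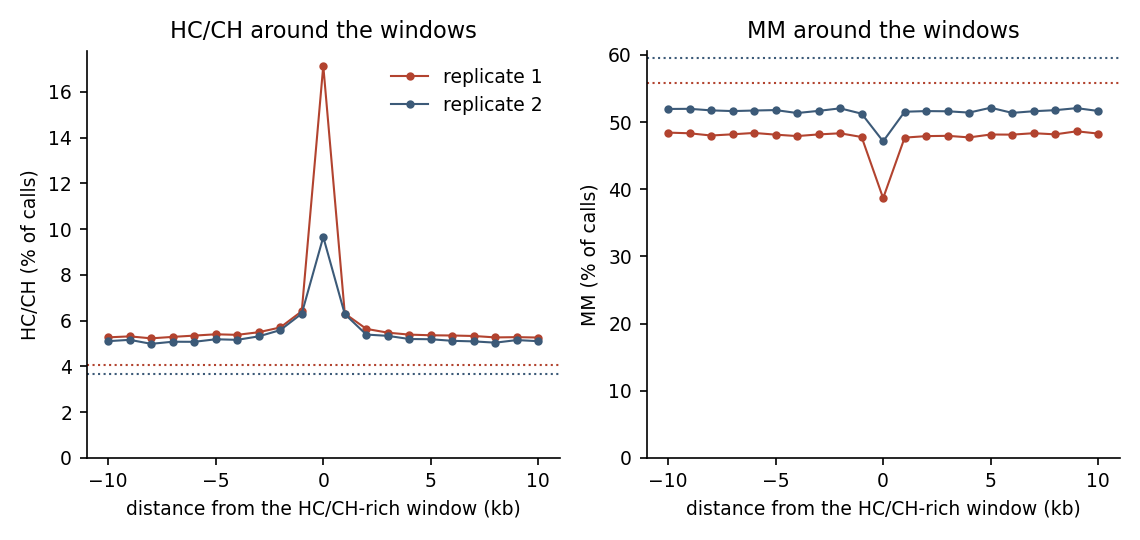
HC/CH (left) and MM (right), in percent of calls, by distance in kb from the HC/CH-rich windows, which lie at 0 and were chosen in replicate 1; points are pooled levels of 1 kb windows and dotted lines the autosomal levels. HC/CH falls from 17.1% and 9.66% at 0 to 6.41% and 6.31% at 1 kb toward lower coordinates in replicates 1 and 2. Flanking points leave out windows that were themselves chosen.

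Most of the windows stood alone. There were 12631 single windows, 387 runs of 2 adjacent windows and 15 runs of 3, and no longer run. Of 20903 eligible windows next to a chosen one, 3.99 per 100 were chosen themselves, against 1.13 per 100 overall. The run of 3 with most HC/CH calls lay in an intron of Xpnpep1, which encodes an aminopeptidase (chr19:53016000-53018999), with levels of 16.7%, 17.7% and 17.0% in replicate 1 and 12.5%, 5.36% and 8.16% in replicate 2. The next lay upstream of Aen, an exonuclease gene induced by p53 (chr7:78885000-78887999), with 20%, 15% and 16.6% in replicate 1 and 18.8%, 16.2% and 0 in replicate 2, the last on 17 calls. Neither of these runs stayed over 15% in every window of replicate 2.

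The windows were placed on the GENCODE vM21 annotation by their centre, with promoters taken as 1 kb either side of a protein-coding TSS. First introns held 21.0% of the chosen windows and 15.8% of the other eligible ones, a higher share on each of the 19 autosomes (adjusted p = 6.36e-06 by the exact permutation test). Exons held 5.78% against 4.13%, also higher on 19 of 19 (adjusted p = 6.36e-06, exact), a difference that did not pass for windows at 20% or more (1.04 points, adjusted p = 0.0791). Intergenic DNA held 41.8% against 48.6%, lower on 19 of 19 (adjusted p = 6.36e-06, exact), and was still the largest class. Promoters held 1.61% against 2.55%, lower on 17 of 19 (adjusted p = 2.38e-05, exact), and other introns 29.8% against 29.0%, which did not pass the test (adjusted p = 0.145) but turned to -1.13 points and passed with all annotated genes (adjusted p = 0.0335). The promoter difference did not pass with promoters of 2 kb either side (-0.423 points, adjusted p = 0.0861) or with all annotated genes (-0.277 points, adjusted p = 0.219) by the same exact test.

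In replicate 2, HC/CH of the chosen windows was 9.002% in the 25 promoter windows that could be read, 10.0% in exons, 9.28% in first introns, 9.77% in other introns and 10.9% in intergenic windows. In the windows not chosen it was 2.00% in promoters and between 4.48% and 5.10% elsewhere. Promoter windows among the chosen ones thus stood furthest above their own class, a difference of levels that was not tested.

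The chosen windows lay nearer to TSSs than the others but seldom at them. The median distance to the nearest protein-coding TSS was 26.2 kb, against 49.3 kb in the other eligible windows. Per 100 eligible windows, 0.553 were chosen from 0 to 1 kb downstream of a TSS and 0.885 within 1 kb upstream. The rate was 1.76 at 2 to 5 kb downstream, 1.85 at 5 to 10 kb and 1.74 at 5 to 10 kb upstream, and fell again to 0.752 and 0.657 beyond 50 kb downstream and upstream. The dip at the TSS thus lay between flanks on both sides. Chosen windows had a median GC content of 47.1% against 43.8%, 11 CpGs in the reference against 10, and 21.7% of repeat-masked sequence against 18.5%.

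**Figure D4:**
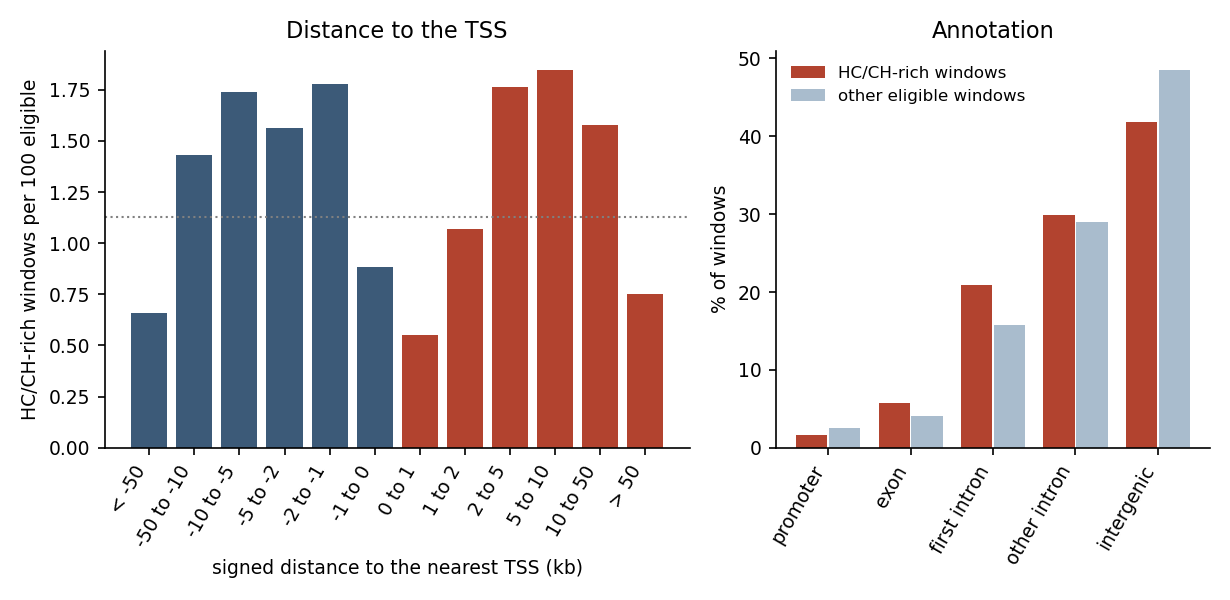
Left, HC/CH-rich windows per 100 eligible windows (y axis) by signed distance to the nearest protein-coding TSS in kb (x axis, upstream negative), with the overall rate of 1.13 dotted. Right, percent of HC/CH-rich and of other eligible windows in each annotation class; the rate is lowest at 0 to 1 kb (0.553), and first introns hold 21.0% against 15.8%.

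The 12 windows with the highest lower value of the replicates were examined, and 11 of them are described. Because both replicates chose them, their levels are a description with no test. The window at the top lay in an intron of Lmf1, which encodes a factor needed for lipase maturation (chr17:25618000-25618999). It had 28 HC/CH calls of 125 (22.4%) in replicate 1 and 14 of 60 (23.3%) in replicate 2, and its CC level was 36.8% and 45%.

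A window in an intron of Arid1b, a subunit of the BAF chromatin remodelling complex (chr17:5133000-5133999), had 23 of 114 calls (20.2%) in replicate 1 and 15 of 40 (37.5%) in replicate 2. The latter was the highest value in replicate 2 among the 1354 windows that passed the limits. It stood on 40 calls, the minimum, and without its top site the window fell below that limit. In an intron of Prep, a prolyl endopeptidase (chr10:45123000-45123999), HC/CH was 16 of 82 calls (19.5%) and 14 of 47 (29.8%). In an intron of Cpne5, a calcium-dependent membrane-binding protein (chr17:29232000-29232999), it was 32 of 155 (20.6%) and 16 of 82 (19.5%). In the first intron of March10, a RING-type ubiquitin ligase (chr11:105402000-105402999), it was 18 of 84 (21.4%) and 10 of 48 (20.8%). These 4 windows were intronic and at 139.2 kb, 54.6 kb, 5.67 kb and 54.2 kb from the nearest TSS.

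The remaining 6 windows lay near Atp23 and Auts2 and in introns of Pacsin2, Rhobtb1, Ski and Cdh4. Ski encodes a co-repressor of TGF-beta signalling and Auts2 a nuclear protein that binds Polycomb components. Their HC/CH levels ran from 19.5% to 22.7% in replicate 1 and from 19.05% to 23.5% in replicate 2. The window in Rhobtb1 had the highest HM/MH of these, at 9.46% and 19.1%. The Cdh4 window was at 4% in replicate 2 when only sites read in both replicates were counted, so its level there came from sites that replicate 1 did not hold. In total 9 of the 12 windows lay in introns and 3 in intergenic DNA, and none in a promoter or exon.

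**Figure D5:**
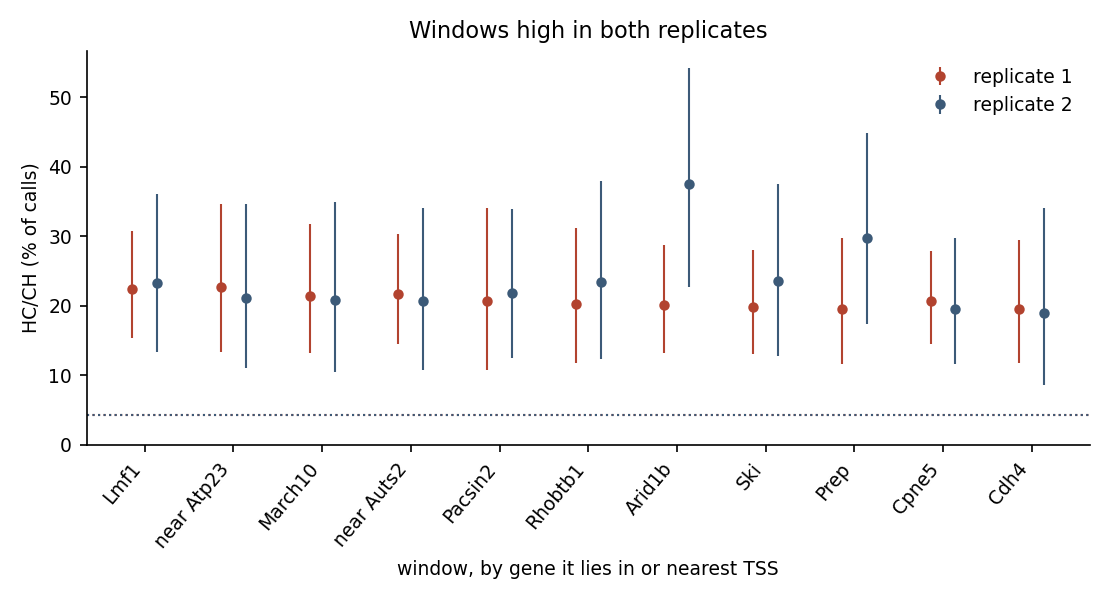
HC/CH level in percent of calls (y axis) in replicates 1 and 2 of 11 of the 12 windows with the highest lower value of the replicates (x axis, by gene); points are levels and bars exact 95% intervals for counting error, and dotted lines are the levels of the other windows (4.25% and 4.37%). All intervals lie above the dotted lines, as the choice of windows on both replicates favours.

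Counted by gene, 4767 of 19046 protein-coding genes with an eligible window had a chosen window in the body, 734 had at least 3 and 209 at least 5. In all, 58.1% of the chosen windows and 51.2% of the others lay in protein-coding genes. Gm20388 (78 windows) and Fgfr2 (36) had most, but these annotated genes span 4434882 and 2960900 bases here, and only 2.05 and 1.67 of 100 eligible windows in them were chosen. The span of Gm20388 includes Gse1, whose product is linked to the LSD1 co-repressor complex, with 23 of 320 eligible windows chosen (7.19 per 100). Rbfox2, a splicing regulator, had 14 of 167 (8.38 per 100), and Tcf20, a transcriptional co-regulator, 11 of 114 (9.65 per 100). The density in Gse1, Rbfox2 and Tcf20 was thus several times that over all protein-coding genes with 5 kb of flank, 1.34 per 100. These genes were picked by their number of chosen windows, so a high density follows in part from the choice. Of the other genes picked in this way, Cmip was at 6.49 per 100, Msi2 at 3.44, Tiam1 at 3.13, Ttc28 at 3.01 and Tenm4 at 2.07.

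In replicate 2 the chosen windows of Rbfox2 were at 17.8% HC/CH on 214 calls and those of Gse1 at 11.1% on 558 calls. Over all their windows these genes were at 6.35% and 7.24%. Cmip had 12 windows at 8.19% in replicate 2, Msi2, an RNA-binding protein of stem cells, 12 at 11.3%, Tenm4, a teneurin, 11 at 11.8%, and Tiam1, an activator of Rac, 10 at 8.42%. The 10 windows of Ttc28 were at 19.4% in replicate 1 and only 2.80% in replicate 2, on 107 calls. Ttc28 was thus the exception among the 10 genes with most windows, the others lying between 8.19% and 17.8%.

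Genes of 5 lists were searched for chosen windows in the body or within 5 kb. Among genes of naive and core pluripotency, 15 of 33 genes with an eligible window had a chosen one, with 41 of 1080 eligible windows (3.796 per 100). Among genes of the formative and primed state it was 10 of 18 genes and 23 of 785 windows (2.93 per 100), and among genes of cytosine modification 7 of 17 genes and 12 of 639 windows (1.88 per 100). Endoderm and trophoblast genes had windows at 3 of 12 genes, with 4 of 440 (0.909 per 100), and neural and muscle genes at 3 of 13, with 4 of 325 (1.23 per 100). Over all protein-coding genes it was 6121 of 19829 genes (30.9%) and 1.34 per 100, and the lists were chosen with results of these data known, so no test was made of the order. With windows chosen in replicate 2 instead, the rates were 5.97, 3.31, 3.62, 0 and 5.26 against 2.91 over all genes, the last list on 3 windows. Among windows with at least 80 calls, they were 2.83, 2.22, 0.962, 1.05 and 0.485 against 1.01, and for windows at 20% or more 0.648, 0.255, 0.156, 0 and 0 against 0.161. The pluripotency and the formative and primed lists were above all genes in each of these settings, and the cytosine modification list was not. Windows with at least 80 calls and those at 20% or more are subsets of the windows of the rule. These 2 settings are therefore not independent of the main rates. Some of these rates rest on few windows. The formative and primed list had 6 windows chosen in replicate 2 and 2 at 20% or more. The cytosine modification list had 4 with at least 80 calls and 1 at 20% or more. On such counts the contrast between these 2 lists is a description only.

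The pluripotency genes with most chosen windows were Jarid2, a subunit of Polycomb repressive complex 2, with 9, the LIF receptor gene Lifr with 7, and Esrrb, an orphan nuclear receptor of the naive network, with 5. Nr5a2 and Stat3, the transducer of the LIF signal, had 4 each, Klf4 and Dppa2 had 2, and Rif1, Tbx3, Nanog, Nodal, Il6st, Tdh, Klf5 and Dppa4 had 1. The other genes of the list had none, among them Pou5f1, Sox2, Zfp42, Klf2 and Tfcp2l1. The rate of the list thus came in large part from Jarid2, Lifr and Stat3. In replicate 2 the windows in the body of Esrrb were at 9.66% on 145 calls, those of Jarid2 at 8.82% on 170 and those of Lifr at 9.92% on 121. The Nanog window, which holds exon sequence near the 3′ end of the gene, was at 15% in replicate 1 and 3.13% in replicate 2 on 32 calls. The Esrrb window shown above had 29 HC/CH calls of 113 (25.7%) at 12 of 13 sites in replicate 1 and 2 of 21 (9.52%) in replicate 2.

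Of the formative and primed genes, Etv5, an ETS factor downstream of FGF, had 5 windows (14% in replicate 2 on 100 calls) and Dnmt3a, a de novo methyltransferase, had 4 (13.3% on 90). Lef1 and Tcf7l1, which bind beta-catenin, had 3 each, Etv4 and Grhl2 had 2, and Dnmt3b, Pou3f1, Sall2 and Fgf8 had 1. Among genes of cytosine modification, Tet1, which makes hmC, had 3 windows (13.2% in replicate 2 on 121 calls) and Uhrf1 had 3 (10.3% on 87). Hells had 2, and Dnmt1, Mbd1, Mbd2 and a window 2.36 kb upstream of Tet2 accounted for 1 each. In the lineage lists, Dab2 and Tubb3 had 2 windows and Hnf4a, Tfap2c, Map2 and Des had 1. Tubb3 lies within the span of Gm20388, and both of its windows overlapped neighbouring genes.

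Pooled over each list in replicate 2, the windows were at 9.48% HC/CH (pluripotency, exact 95% interval, 7.63% to 11.6%), 10.5% (formative and primed, 7.81% to 13.8%) and 10.4% (cytosine modification, 7.42% to 14.2%). All chosen windows with a call there were at 9.66% and the other eligible windows at 3.89%. The intervals of these 3 lists spanned the level of all chosen windows. The few windows of the lineage lists were at 6.25% and 15.8% on 48 and 95 calls. Of the list windows, 13 could be tested in replicate 2 by Fisher's exact test, of which 0 passed at an adjusted p under 0.05, against 12.04% of all chosen windows and 2.16% of all windows tested. At an unadjusted p under 0.05, 4 of the 13 passed, against 44.1% and 10.5%.

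Motifs of factors of these cells were searched on both strands of each window. The ESRRB motif TCAAGGTCA was found in 597 windows (4.44%), against 2.55% of all eligible windows. The SP/KLF motif CCCGCCC was found in 10.7% against 6.53%, and the E-box CAGCTG in 44.3% against 36.9%. The octamer ATGCAAAT was found in 5.86% against 6.63%, the AP-1 motif TGANTCA in 27.1% against 27.6%, and a CTCF motif in 1.10% against 0.853%. GC content, at a median of 47.1% against 43.8%, moved with these shares, and its part in them was not tested. HC/CH in replicate 2 was 10.0% in windows with the ESRRB motif and 9.64% in those without it, and the exact 95% intervals (9.48% to 10.6% and 9.53% to 9.76%) overlapped. A match is a description of letters and not of binding.

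HM/MH-rich windows, chosen in replicate 1 by the same limits on HM plus MH, numbered 3439. In the synthetic duplexes a true MM was called HM/MH at a rate of 4.51% in replicate 1 and 0.467% in replicate 2, and the part of this in their choice was not tested. In all, 130 windows were in both sets, 0.967% of the HC/CH-rich and 3.78% of the HM/MH-rich windows. Of all eligible windows, 1.13% were HC/CH-rich, so the share among HM/MH-rich windows was above that background, a difference that was not tested. The windows of only 1 set were compared in replicate 2, with 1346 and 148 passing the limits. CC was 27.3% in HC/CH-rich and 14.3% in HM/MH-rich windows, higher on 18 autosomes of 19 (adjusted p = 3.43e-05 by the exact permutation test), and MM was 45.6% against 60.2%, lower on 18 of 19 (adjusted p = 3.43e-05). HC/CH was 10.1% against 7.75%, higher on 14 of 19 (adjusted p = 0.002, exact), and HH was 0.725% against 0.508%, higher on 13 of 19 (adjusted p = 0.0151, exact). MC/CM was 10.6% against 11.5% and did not pass the test (adjusted p = 0.218, exact). HM/MH was 5.73% in HC/CH-rich and 5.76% in HM/MH-rich windows, a difference of -0.03 points that did not pass the test (exact permutation test, adjusted p = 0.847). In replicate 2 the sets thus differed in CC, MM, HC/CH and HH, and no difference was detected in HM/MH, by which the second set had been chosen in replicate 1.

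The HM/MH-rich windows were also placed differently. First introns held 15.2% of them and 21.0% of the HC/CH-rich windows, and exons 3.72% and 5.78%. Intergenic DNA held 50.1% and 41.8%, and the median distance to a TSS was 51.1 kb and 26.2 kb. These differences between the sets were not tested.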

How the data were processed

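SCoTCH-seq data of 2 passages of E14 mESCs were used, as 2 replicates of 1 condition. The authors filtered and trimmed read pairs with Cutadapt 4.6, aligned inserts with BSBolt to GRCm38 (mm10), removed duplicates with Picard 3.1.1 and assigned a state to each CpG of a read pair. The deposited counts are calls of each of 9 states per CpG, and the deposited percent values are these counts relative to the depth of the site. Sites under 5 calls, blacklisted sites and sites with multiple calling errors had been removed by the authors from each replicate, and spike-ins were not used to correct the values.

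Counts were summed in windows of 1000 bp (Python 3.11.15, NumPy 2.4.6, pandas 2.3.3, SciPy 1.17.1, Matplotlib 3.10.9). All 18248820 deposited positions checked fell on the C of a CpG of GRCm38.p6. Windows were chosen in replicate 1 and tested in replicate 2 by Fisher's exact test per window and by exact sign-flip permutation tests over 19 autosomes, adjusted over 6 state groups or 5 annotation classes by Benjamini-Hochberg, at 0.05. Functions were tested on simulated data. Where levels were corrected, true states of the synthetic duplexes were taken as the most frequent call. The alternatives covered the limits, the depth, the offset of windows, the weighting, the correction, the annotation and the swap of replicates. Intervals are exact Clopper-Pearson intervals at 95%.

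The windows and gene lists were chosen with earlier results of these data known. Named were the 12 windows with the highest lower level of the replicates, 3 of the 15 longest runs (those with most HC/CH calls), 3 windows on each side of the limit, the 10 genes with most windows and each list gene with a window, of which 1 window and 1 run are not reported here. The paper merged the replicates for its main analysis and also compared them separately. They were kept apart here, and sex chromosomes were not analysed here.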

Additional observations from a re-analysis of the deposited data

How the results depend on the processing

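The number of windows depended on the rule: 43659 at a limit of 12%, 1644 at 20%, 5740 with at least 80 calls, 4224 with at least 10 sites, 3187 with the top site left out and 4062 when chosen in replicate 2. For windows chosen by the rule as stated, the HC/CH level in replicate 2 lay between 9.66% and 10.4% under the other ways of computing it that were run, the latter after correction with the spike-ins, and was 10.3% for those with at least 80 calls in replicate 1. Windows chosen in replicate 2 were at 9.02% when read in replicate 1. The mean of the replicates became 10.1% without replicate 1 and 16.9% without replicate 2.

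Of the differences in replicate 2, CC turned to 0.79 points with at least 20 calls, and MM turned to 16.4 and MC/CM to 3.25 points with at least 80 calls. The count of 163 Fisher calls fell to 75 of 1354 at an adjusted p under 0.01 (5.54%, against 0.840% of all windows) and to 19 of 48 with at least 80 calls (39.6% against 8.54%), and was 112 of 771 with the top site left out (14.5% against 2.44%). The promoter share did not pass with promoters of 2 kb (-0.423 points) or all genes (-0.277), nor the exon share for windows at 20% or more (1.04 points, adjusted p = 0.0791 by the exact permutation test), and other introns turned to -1.13 points with all genes, which passed (adjusted p = 0.0335, exact). The cause was not tested. Without their top site, 9 of the 12 named windows could be refitted, at 15.8% to 24.4%, and 3 fell below the limits. The ESRRB motif share was 4.26% to 4.58% in the alternatives.

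No paired analysis was possible because both samples form 1 group. Replicate 2 held 4882356 autosomal sites against 13366464 in replicate 1, and 10.1% of the windows could be tested there.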
